A study of Caenorhabditis elegans with 2 samples.

Results

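Chaperone and heat shock genes of Caenorhabditis elegans were examined in a chromatin immunoprecipitation sequencing (ChIP-seq) study of CCCH-3, a protein of the CCCH zinc finger family. The genes were chosen by name, as all protein-coding genes of the Ensembl annotation of WBcel235 whose symbol begins with hsp-, cct- or dnj-. There were 59 such genes among 19985 protein-coding genes. They comprised 22 hsp genes, 8 cct genes and 29 dnj genes. Each gene was given a promoter window from 1000 bp upstream to 200 bp downstream of its annotated start, and a region counted for each gene whose promoter window contained the summit.

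The study had 1 group, young adults of strain OP628, of mixed sex and 70 hours old, from cultures that were bleached and starved at the first larval stage. The strain carries the integrated transgene wgIs628, a fosmid in which ccch-3 is joined to a TY1, EGFP and 3xFLAG tag, together with unc-119(+) in the unc-119(tm4063) background. The tagged protein was recovered from whole animals with an antibody against GFP, after sonication to fragments of 200 to 800 bp, in 2 biological replicates. All cell types of the worm were therefore pooled, signal confined to a few cell types could not be told apart from weak signal in many, and untagged animals are not analysed here.

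Chaperones bind proteins that are unfolded or being folded. Hsp70 proteins bind short exposed stretches and are driven by DnaJ proteins, which start their ATP cycle, while Hsp90 acts on nearly mature clients and the chaperonins (the cytosolic cct ring and mitochondrial Hsp60) enclose whole proteins. Many of these genes are expressed in all growing cells, whereas others, such as the small heat shock genes of the hsp-16 group, are nearly silent until heat shock factor HSF-1 binds inverted repeats of nGAAn, the heat shock elements, in their promoters.

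The files were lists of regions. A pooled list and 2 replicate lists held 30000 candidate regions each, many of which were never called bound, and a further list of 218 peaks had passed a threshold on the irreproducible discovery rate (IDR), which compares ranks between replicates. Those 218 are called reproducible peaks here, and they were the 218 regions of highest signal in the pooled list. Signal is the authors' value for each region against a control, on a scale that was not stated, so it was compared within a list only, and q is the false discovery rate of the authors' caller. Pooled signal ran from 29.4 to 357 with a median of 38.1, and 94.4 was the lowest signal of a reproducible peak. The replicates differed in their q-values. Replicate 1 had no region with q at or under 0.05 and its lowest q was 0.125, while replicate 2 had 202 such regions and a lowest q of 0.0102. In replicate 1 the regions at hsp-90 (rank 82) and dnj-12 (rank 134) also had q of 0.125. Replicate 1 held 16 mitochondrial regions and its highest signal was 3420, while replicate 2 held 0 and its highest signal was 183. The cause of these differences was not tested. In the pooled list 229 regions had q at or under 0.05. With 1 group and 2 replicates there was no contrast to test, and counts are given beside the same count over all protein-coding genes.

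Reproducible peaks lay in the promoter windows of 4 chaperone genes. These were hsp-1, the constitutive cytosolic Hsp70, hsp-60, the mitochondrial chaperonin, cct-8, a subunit of the cytosolic chaperonin ring, and dnj-12, a DnaJ protein. Another 3 constitutive genes, hsp-90, hsp-110 and hsp-6, had a reproducible peak inside the gene or just past its end. None of the 8 stress-induced genes had one at either place, which is no result for 8 genes. For all protein-coding genes the shares were 0.881% in the promoter window, 0.255% inside the gene and 0.2% within 200 bp of its end. Of the 8 genes, 4 lie in identical arms that cannot be read well, and hsp-16.2 and hsp-16.41 count the same pooled region.

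Sequences of 101 bases centred on the pooled summit are printed for the promoter peaks of hsp-1, hsp-60 and cct-8 and the peak inside hsp-90. A sequence is also printed for the cct-7 region, which ranked 307 and was not a reproducible peak. The peaks at the ends of hsp-110 and hsp-6 are not printed. The whole interval between the divergent starts of hsp-16.2 and hsp-16.41 is printed as the stress-induced case. All sequences were read from the RefSeq genome of WBcel235, which has the same sequence as ce11. They are on the strand of the gene named first, or on the plus strand for hsp-16.2 and hsp-16.41. Capitals mark, on either strand, the pairs of heat shock units GAANNTTC (present at 7.8% of the 218 reproducible summits) and TTCNNGAA (present at 6.88%). They also mark the 6-mer GGCCGA (present at 16.1% of those summits), the 6-mer CGGCCA (at 14.7%), the 6-mer ACACGC (at 13.3%), the 6-mer GTACAC (at 12.8%) and the 6-mer GGCCTA (at 11.0%). These 5 6-mers were singled out from the reproducible peaks in an earlier look at these data, so their presence at peaks is no independent result, and the 2 pairs can overlap each other. The hsp-1 sequence is chrIV:17278555-17278655 on the plus strand, hsp-60 is chrIII:1619023-1619123 on the plus strand, cct-8 is chrIV:1094382-1094482 on the minus strand, cct-7 is chrV:1871885-1871985 on the plus strand, hsp-90 is chrV:14685695-14685795 on the plus strand, and the hsp-16.2 and hsp-16.41 interval is chrV:1804958-1805177.
hsp-1: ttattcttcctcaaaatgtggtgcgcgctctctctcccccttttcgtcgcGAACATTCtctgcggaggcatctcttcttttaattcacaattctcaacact
hsp-60: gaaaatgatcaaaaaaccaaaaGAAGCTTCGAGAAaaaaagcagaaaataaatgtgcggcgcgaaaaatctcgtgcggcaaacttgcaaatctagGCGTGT
cct-8: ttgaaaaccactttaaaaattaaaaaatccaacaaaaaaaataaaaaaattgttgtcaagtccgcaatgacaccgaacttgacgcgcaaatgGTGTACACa
cct-7: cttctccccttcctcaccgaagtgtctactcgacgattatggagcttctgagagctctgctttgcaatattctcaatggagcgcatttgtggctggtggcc
hsp-90: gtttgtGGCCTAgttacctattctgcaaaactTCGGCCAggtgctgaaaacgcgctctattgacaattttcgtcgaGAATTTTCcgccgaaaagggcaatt
hsp-16.2 and hsp-16.41: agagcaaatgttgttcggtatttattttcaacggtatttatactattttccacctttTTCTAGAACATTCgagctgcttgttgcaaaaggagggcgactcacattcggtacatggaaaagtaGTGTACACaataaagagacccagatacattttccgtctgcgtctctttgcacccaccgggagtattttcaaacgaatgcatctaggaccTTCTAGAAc

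The hsp-1 summit lay over a single GAANNTTC and none of the 6-mers. At hsp-60 the 2 pairs overlapped upstream of the centre, with ACACGC on the opposite strand at the downstream edge. At cct-8 there was the palindrome GTGTACAC, which holds 2 overlapping matches to GTACAC on opposite strands, and no pair. At cct-7 nothing was marked, and at the hsp-90 summit 3 of the 6-mers stood beside a GAANNTTC. The hsp-16 interval held 3 matches to the pairs, in 2 places, and the same palindrome GTGTACAC between them. Each match is a description of the letters and not a binding site.

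In all, 4 of 59 chaperone genes (6.78%) had a reproducible summit in the promoter window, against 172 of 19926 other protein-coding genes (0.863%). Over all protein-coding genes the share was 0.881%. With the 218 highest regions of a single replicate in place of the reproducible peaks, the chaperone count was 2 without replicate 1 (hsp-1 and hsp-60) and 4 without replicate 2. A pooled candidate of any strength lay in the window of 26 chaperone genes (44.1%), against 6949 other genes (34.9%), and the share over all protein-coding genes was 34.9%. Of the genes with a candidate, 15.4% of the chaperone genes and 2.48% of the other genes had it at a reproducible summit, and the share over all such genes was 2.52%. Regions of both replicate lists were present in the windows of 18 chaperone genes (30.5%) and of 3380 other genes (17%), with 17% over all. The median pooled rank of the strongest region, among genes that had one, was 6371.5 for the chaperone genes and 13436 for the other genes, where a low rank is a strong region.

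The ratio of the shares narrowed as weaker ranks were taken in. Among the 500 highest pooled regions, 5 chaperone genes (8.47%) and 306 other genes (1.54%) had a summit in the window. Among the 5000 highest the counts were 11 chaperone genes (18.6%) and 1547 other genes (7.76%), and among the 10000 highest 15 chaperone genes (25.4%) and 2746 other genes (13.8%). Of the 26 chaperone genes with a pooled candidate, 17 also had regions in both replicate lists, 8 in replicate 2 only and 1 in replicate 1 only. No region of any list was found in the windows of 22 of 59 chaperone genes, against 9082 of 19926 other genes.

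**Figure D1:**
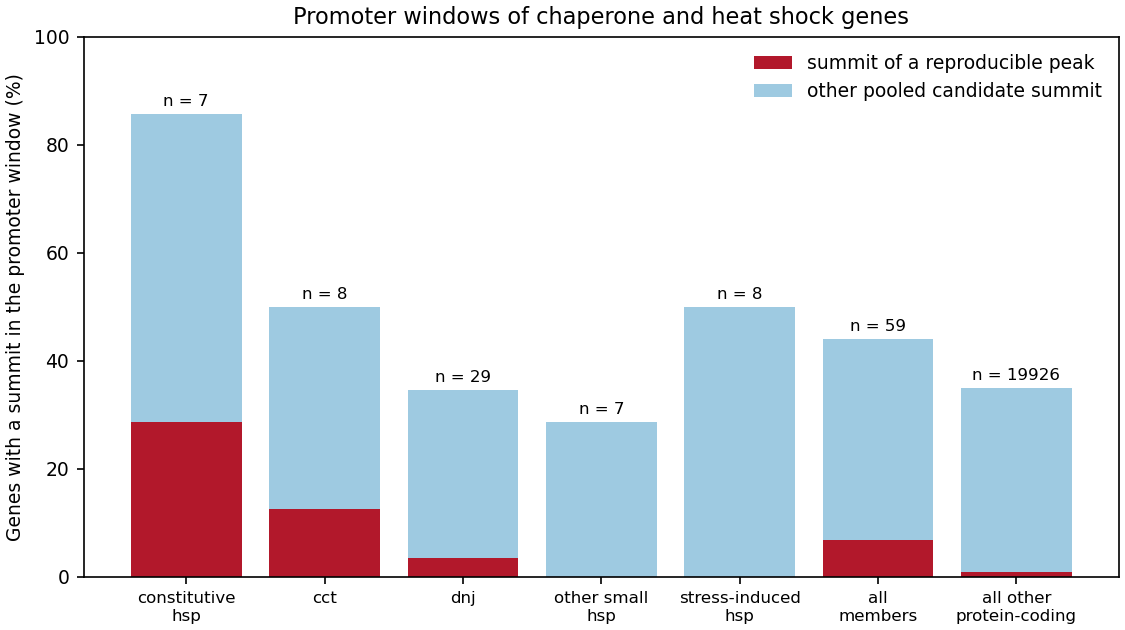
Share of genes, in percent, whose promoter window held a summit, by family, with the number of genes above each bar. The dark part is the share with a reproducible summit (28.6% of 7 constitutive hsp genes, 12.5% of 8 cct genes, 3.45% of 29 dnj genes, 0 for both other hsp families, 6.78% of all 59 members and 0.863% of all other protein-coding genes), and the light part adds genes with a weaker pooled candidate only.

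The 15 genes made in unstressed cells were the 8 cct genes and 7 hsp genes, namely hsp-1, hsp-3, hsp-6, hsp-60, hsp-75, hsp-90 and hsp-110. This class rests on textbook knowledge of the genes and not on these data, and some of its genes rise further under organelle stress, among them hsp-6 and hsp-60. In it 3 genes (20%) had a reproducible summit in the promoter window and 10 (66.7%) a pooled candidate, where 34.9% of all protein-coding genes had a candidate. The stress-induced class held hsp-70, hsp-4 and 6 genes of the hsp-16 group, of which 0 of 8 had a reproducible summit and 4 (50%) a candidate. The 4 without a candidate lie in identical arms on chromosome V, where a missing region cannot be read well. Of the 4 with a candidate, hsp-16.2 and hsp-16.41 count the same pooled region. The 8 genes are therefore not 8 separate readings in any of the comparisons that follow. The best ranks in the class of 15 ran from 56 to 18227 with a median of 4146, against 1271 to 21069 with a median of 10247 in the stress-induced class. These ranges overlap, and 8 genes are too few to tell a share of 0 from the share of all protein-coding genes, of which 0.881% had a reproducible summit. In the list of regions in both replicates the order was the other way round, with 6 of 15 constitutive genes (40.0%) and 4 of 8 stress-induced genes (50%), against 17% of all protein-coding genes.

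**Figure D2:**
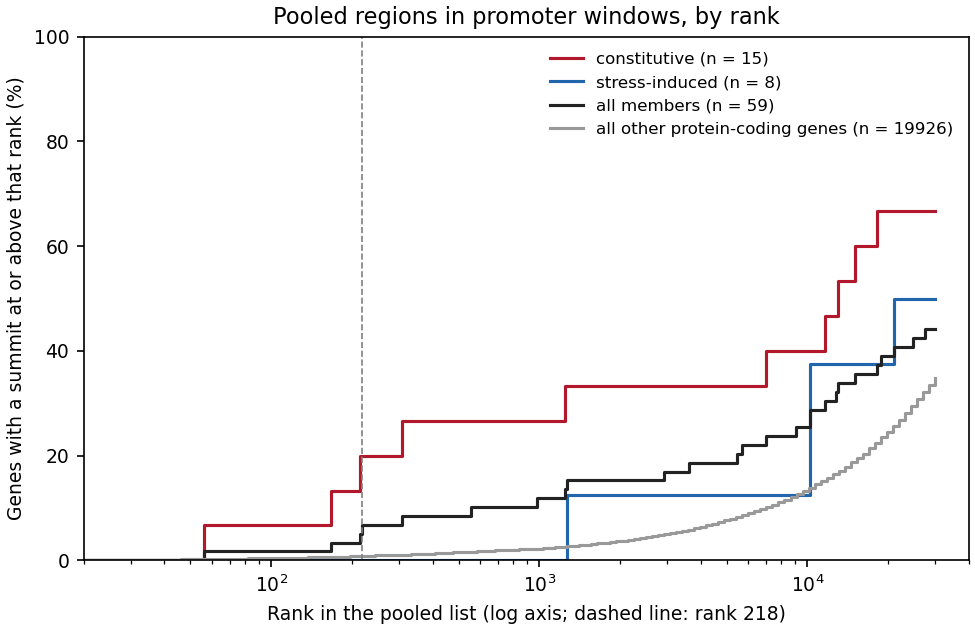
Cumulative share of genes, in percent, with a summit in the promoter window at or above a given rank of the pooled list (log axis, strong regions at the left). At rank 218, the dashed line, the lines stand at 20% for the 15 constitutive genes, 0 for the 8 stress-induced genes, 6.78% for all 59 members and 0.863% for all other protein-coding genes, and at rank 30000 they stand at 66.7%, 50%, 44.1% and 34.9%.

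The strongest of the promoter peaks was that of hsp-1 (WBGene00002005, chrIV:17278959-17281330, plus strand). It ranked 56 in the pooled list with a signal of 149 and q of 0.00488, the lowest q in that list. Its region, chrIV:17278405-17278804, was intergenic with the summit 354 bp upstream of the start. In replicate 1 the region ranked 91 with a signal of 65.0 and q of 0.125, and in replicate 2 it ranked 41 with a signal of 91.5 and q of 0.0102. Its summits lay 15 bp and 74 bp from the pooled one in replicates 1 and 2, less than the shortest fragments of 200 bp, which set the resolution. No other protein-coding gene shared this summit. The ncRNA gene F26D10.23 did, with its start 192 bp before the summit, on the same strand.

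A second reproducible peak lay at the other end of hsp-1. It ranked 81 with a signal of 134 and q of 0.00488, and its summit fell on the last annotated base of the gene, in the 3′ UTR. It ranked 113 in replicate 1 and 131 in replicate 2. No promoter window of another gene held it, since the neighbour there, nra-1, which encodes a protein associated with nicotinic receptors, is transcribed towards hsp-1. Weaker regions stood between both peaks, inside the gene.

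The hsp-60 peak (chrIII:1618873-1619272) ranked 167, with a signal of 103 and q of 0.027, and its summit lay 669 bp upstream of the start, the farthest of the 4. It ranked 212 in replicate 1 with a signal of 51.2 and 214 in replicate 2 with a signal of 55.8, so both replicates placed it close to the limit of the reproducible list. The summit was nearer to the divergent gene Y22D7AL.10, at 144 bp upstream of that start, and the starts of the pair were 813 bp apart. RefSeq names the product of Y22D7AL.10 as the mitochondrial 10 kDa heat shock protein, the lid of the Hsp60 chamber, so the summit lay between the genes for both parts of the mitochondrial chaperonin. Y22D7AL.10 has no symbol of the chosen kind and was not counted among the 59.

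At cct-8 the peak (chrIV:1094232-1094631) ranked 215, with a signal of 94.7 and q of 0.0303, and its summit was 512 bp upstream. It ranked 124 in replicate 1 with a signal of 60.2 and 230 in replicate 2 with a signal of 54.8. The divergent gene Y55F3AR.2, which encodes a protein with a thioredoxin domain, began closer to it, 109 bp from the summit. At dnj-12 the peak (chrI:14756431-14756830) ranked 218, the last place in the reproducible list, with a signal of 94.4 and q of 0.0299, and its summit was 273 bp upstream. Its replicates differed most of the 4, with rank 134 and a signal of 58.8 in replicate 1 and rank 944 and a signal of 41.5 in replicate 2. It was shared with mtx-1, a homologue of metaxin of the mitochondrial outer membrane, whose start lay 219 bp from the summit on the opposite strand. No sequence is printed for dnj-12.

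Just below the limit of the reproducible list was cct-7, another subunit of the cytosolic ring, with a region of rank 307, a signal of 84.4 and q of 0.106. Its summit was 311 bp upstream of cct-7 and 128 bp upstream of the divergent gene T10B5.4, and the ncRNA gene T10B5.13 began 45 bp beyond it. The replicates gave similar places, rank 666 in replicate 1 and rank 383 in replicate 2. Among the other cct genes, cct-2 and cct-6 had candidates of rank 11653 and 13033, cct-1 and cct-4 had a region in 1 replicate list only, and cct-3 and cct-5 had none. The 8 subunits are needed together in each ring, and the best ranks at their genes ran from 215 in cct-8 to 13033 in cct-6, with 4 genes lacking a pooled candidate.

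**Figure D3:**
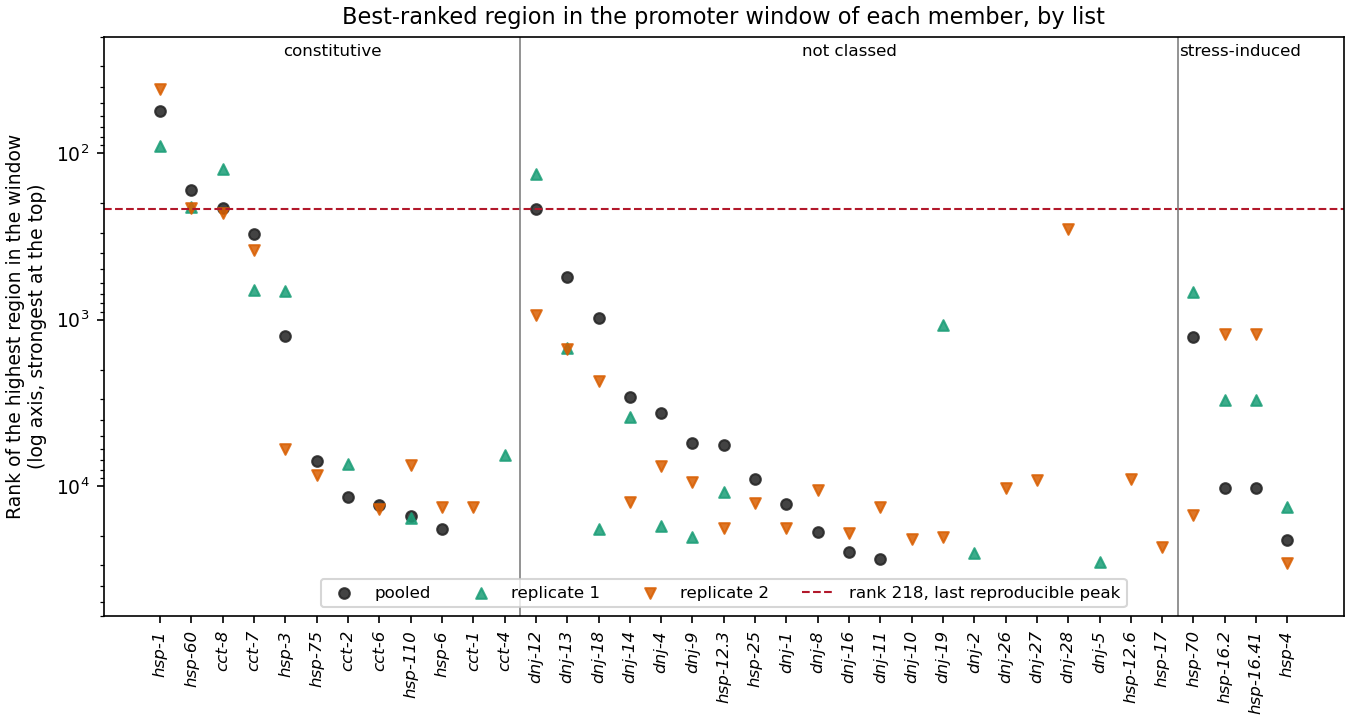
Rank of the strongest region in the promoter window (log axis, strong regions at the top) for the members with a region in at least 1 list, in the pooled list (circles), replicate 1 (upward triangles) and replicate 2 (downward triangles). Above or on the dashed line at rank 218 stand the pooled values of hsp-1, hsp-60, cct-8 and dnj-12 only, and members with no pooled circle, such as dnj-28 and dnj-19, had regions in replicate lists alone.

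The remaining constitutive hsp genes showed how much the choice of window matters. In hsp-90, which encodes the cytosolic Hsp90, no list had a region in the promoter window, yet the strongest region near any chaperone gene lay inside the gene. It ranked 25 with a signal of 174 and q of 0.00488 (chrV:14685545-14685944), in an intron 827 bp downstream of the annotated start. It ranked 82 in replicate 1 with a signal of 67.2 and 17 in replicate 2 with a signal of 109, and both replicate summits lay within 21 bp of the pooled one. The annotation gives hsp-90 a shorter transcript, C47E8.5.1, that starts downstream of this summit, 415 bp away, so the region counts as promoter for that transcript. The same summit was 260 bp upstream of C47E8.4, a FAM50 homologue on the opposite strand whose annotated span overlaps that of hsp-90.

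A weaker region past the end of hsp-90 ranked 232, with a signal of 91.7 and q of 0.0497. It was 165 bp beyond the end, in a coding exon of C47E8.11, and was shared with that gene, with gasr-8 and with a tRNA gene. The replicates differed there, at rank 1233 in replicate 1 and rank 89 in replicate 2.

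Peaks at gene ends were also found at hsp-110, a nucleotide exchange factor of the Hsp70 family, and hsp-6, the mitochondrial Hsp70. The hsp-110 peak (chrIII:8443621-8444020) ranked 104, with a signal of 123 and q of 0.0145, and lay 89 bp past the end. It ranked 391 in replicate 1 with a signal of 44.0 and 91 in replicate 2 with a signal of 72.8. The hsp-6 peak (chrV:4823773-4824172) ranked 147, with a signal of 108 and q of 0.0171, and lay 151 bp past the end, with rank 123 in replicate 1 and 119 in replicate 2. Both were also in the promoter window of the next gene on the same strand, ufbp-1 (214 bp upstream of its start), which encodes a UFM1-binding protein, and adss-1 (550 bp upstream), which encodes adenylosuccinate synthetase. In their own promoter windows these genes had only weak candidates, of rank 15078 and signal 38.0 at hsp-110 and of rank 18227 and signal 35.8 at hsp-6.

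In all, 3 chaperone genes (5.08%) had a reproducible summit within 200 bp of the gene end, against 37 other genes (0.186%), and the share over all protein-coding genes was 0.2%. The gene-end and whole-gene windows were chosen after these peaks had been seen, and the count inside the gene was not planned either. The shares in this paragraph therefore only describe the peaks that prompted them. For 2 of the 3 chaperone genes the summit was also in another gene's promoter window, and so it was for 18 of the 37 other genes. A summit inside the gene and away from both windows was found in 1 chaperone gene, hsp-90 (1.69%), against 50 other genes (0.251%), with 0.255% over all. From 1000 bp upstream of the start to 200 bp past the end, 7 chaperone genes (11.9%) and 258 other genes (1.29%) held a reproducible summit, with 1.33% over all. The 7 were hsp-1, hsp-60, cct-8, dnj-12, hsp-90, hsp-110 and hsp-6, of which 6 belong to the 15 constitutive genes. Near-misses existed at further ends. A region of rank 240 and signal 90.8 lay in the 3′ UTR of hsp-60, 80 bp before the end, one of rank 337 and signal 82.5 lay 31 bp past the end of dnj-13, and a reproducible peak of rank 201 lay 226 bp past the end of cct-7, in the 3′ UTR of zig-11.

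**Figure D4:**
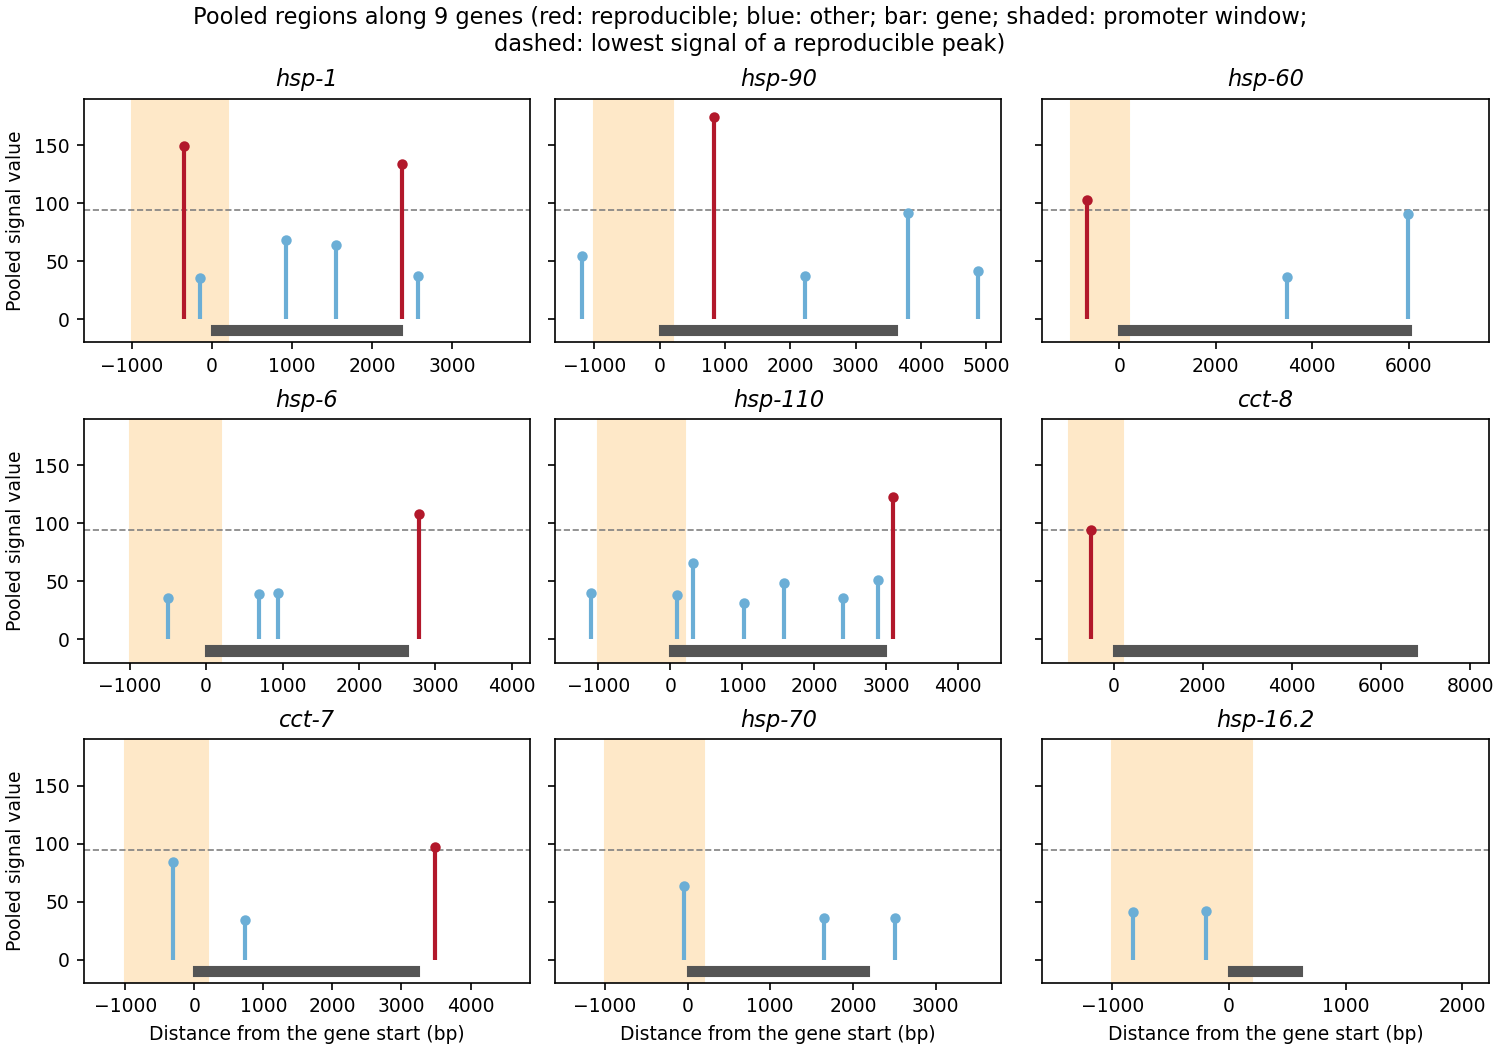
Pooled signal value of each region against the distance of its summit from the gene start in bp, for 9 genes, with the gene as a bar, the promoter window shaded and a dashed line at the lowest reproducible signal of 94.4. Reproducible regions stand in the window at hsp-1, hsp-60 and cct-8, inside the gene at hsp-90, and at or past the end at hsp-1, hsp-6, hsp-110 and cct-7, while hsp-70 and hsp-16.2 have weaker regions alone.

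The organelle chaperones hsp-3 and hsp-75 had weaker regions. At hsp-3, an Hsp70 of the endoplasmic reticulum, the region ranked 1251 with a signal of 63.6, and its summit was 45 bp downstream of the start. Replicate 1 had an overlapping region at rank 670 with its summit 142 bp away, and replicate 2 had one at rank 11259 with its summit 16 bp away. At hsp-75, the mitochondrial Hsp90, the rank was 7041 and replicate 1 had no region.

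Among the stress-induced genes the strongest region was at hsp-70, an Hsp70 made after heat shock. It ranked 1271 with a signal of 63.4 and q of 0.61, and its summit lay 47 bp upstream of the start, within an intron of uggt-2. The replicates differed, with rank 682 and a signal of 39.9 in replicate 1 and rank 14912 and a signal of 23.6 in replicate 2. The small heat shock genes hsp-16.2 and hsp-16.41 are transcribed away from each other from starts 221 bp apart and shared 1 region, of rank 10247 and signal 42.3, with its summit 201 bp upstream of hsp-16.2 and 20 bp upstream of hsp-16.41. Both replicates ranked a region there higher than the pooled list did, at 3035 in replicate 1, with a summit 277 bp from the pooled one, and at 1221 in replicate 2 with the same summit. At hsp-4, the stress-induced Hsp70 of the endoplasmic reticulum, the rank was 21069 and the signal 34.0.

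The other 4 stress-induced genes lie together on chromosome V and cannot be read well. They are annotated under the names hsp-16.1 and hsp-16.48, each given to a pair of genes, in inverted arms at chrV:9087293-9088617 and chrV:9089280-9090604. The arms are 1325 bp each and 100% identical, and the identity extends over 1881 bp. How reads that match both arms were treated is not given in the sources used here. No candidate summit lay in their windows in any list, and the nearest regions on the outer sides ended at 9086170 and began at 9092076. The single pooled region of the locus, of rank 5219 and signal 49.1, lay at chrV:9088815-9089214. Most of it was in the spacer of 414 bp between the identical stretches, and its end reached into the second stretch. All 4 stress-induced genes with a candidate lie outside this locus and had regions in both replicates, and hsp-16.2 and hsp-16.41 count the same pooled region.

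DnaJ genes, the largest family, followed the rest of the genome in candidates, with 10 of 29 (34.5%) against 34.9% of all protein-coding genes. After dnj-12 the strongest was dnj-13, whose product is a partner of cytosolic Hsp70, at rank 556 with a signal of 73.8 and a summit 6 bp downstream of the start. The replicate regions nearest to this summit differed, at rank 23850 and a signal of 17.9 in replicate 1 and rank 1495 and a signal of 38.3 in replicate 2. Replicate 1 also had a stronger region, at rank 1474 with a signal of 35.2. Its summit lay 109 bp upstream of the start, inside the same pooled region, so the best ranks of the replicates were close. Then came dnj-18 at rank 978 and dnj-14, a homologue of the cysteine string protein of synaptic vesicles, at rank 2931. In dnj-20, which encodes a DnaJ protein of the endoplasmic reticulum, a region of rank 319 and signal 83.5 lay in an intron, 4174 bp from the start, and ranked 252 in replicate 1 and 2655 in replicate 2. A region near dnj-28 was seen in replicate 2 alone, at rank 287, and dnj-19 had regions at rank 1072 in replicate 1 and 20380 in replicate 2 that were absent from the pooled list. No region of any list was found in the windows of 12 of 29 dnj genes, against 9082 of 19926 protein-coding genes outside the chaperone set. The remaining dnj candidates were weak. They ranked 3628 at dnj-4, 5488 at dnj-9, 12843 at dnj-1, 18799 at dnj-8, 24861 at dnj-16 and 27542 at dnj-11, with signals of 52.8 to 30.5, the last 3 of them under the pooled median of 38.1. A region in a replicate list without a pooled one was seen also at dnj-10, dnj-26 and dnj-27 (replicate 2) and at dnj-2 and dnj-5 (replicate 1), at rank 9158 or weaker.

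The other small heat shock genes had candidates at 2 of 7 genes (28.6%), against 34.9% of all protein-coding genes. These were hsp-12.3 at rank 5702 and hsp-25 at rank 9061, with signals of 48.3 and 43.6. Both replicate lists had a region in the hsp-12.3 window, and only replicate 2 had one at hsp-25. In hsp-12.6 and hsp-17 replicate 2 alone had a region, at rank 9072 and 23140, and hsp-12.1, hsp-12.2 and hsp-43 had none in any list.

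Shared summits were common among the chaperone genes. Of the 4 reproducible summits in their promoter windows 3 (75%) were shared with another protein-coding gene, against 49 of all 122 such summits (40.2%). The best candidate summits of the 26 genes were 25 in number, and 13 (52.0%) lay in the window of another protein-coding gene too, against 787 of 6197 (12.7%) for the other genes. In all 13 the genes were on opposite strands. These shares are per summit and not per gene. A shared summit has more chances than an unshared one to lie in a chaperone window, so the counting itself widens both contrasts. Counted per gene, windows that overlap that of another protein-coding gene were themselves more frequent, at 33 of 59 chaperone genes (55.9%) and 6717 of 19926 other genes (33.7%). The partners included, beside those named above, glit-1, which encodes a neuroligin-like protein, with its start 89 bp from the dnj-14 summit, alh-9, an aldehyde dehydrogenase gene, at the cct-6 summit, and rpn-3, a subunit of the proteasome cap, at the hsp-110 summit. At the hsp-60, cct-8 and dnj-12 peaks and at the cct-7 region the partner's start was the nearer one, so a count by nearest start left hsp-1 as the sole chaperone gene with a reproducible promoter peak. The signal does not say which gene of a pair it concerns.

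The 4 member summits lay 273 to 669 bp upstream of the chaperone start with a median of 433, and 0 of the 4 was within 250 bp. For the 172 other gene and summit pairs the median was 258.5 bp upstream. At hsp-60, cct-8 and dnj-12 the distance is to the farther gene of a pair. The partner's start was 144, 109 and 219 bp from the summit there. No annotated tRNA, snoRNA or snRNA gene was close. The nearest one was 1441 bp away at the hsp-1 promoter peak and 2547 bp away at dnj-12. Genes annotated as ncRNA were not part of this search, and F26D10.23, of that kind, began 192 bp before the hsp-1 summit.

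In base composition the 101 bases at the 4 summits had a mean GC content of 35.1% (SD 9.48, n = 4, range 23.8% to 45.5%), against 44.5% (SD 9.55, n = 218) at all reproducible summits and 34.7% (SD 8.71, n = 29782) at the other pooled summits. Either GAANNTTC or TTCNNGAA was present at 3 of the 4, hsp-1, hsp-60 and dnj-12, at 28 of all 218 (12.8%) and at 11.2% of the other pooled summits. Any of the 6-mers was present at 2 of the 4, at 85 of 218 (39.0%) and at 7.7% of the others. Over the 25 best candidate summits of members, these 4 included, the shares were lower, with a pair at 6 (24.0%) and a 6-mer at 4 (16%), and the mean GC content was 39.0% (SD 9.3, n = 25). In promoters, taken as 250 bp before to 50 bp after each start, a pair was found in 8 of 8 stress-induced genes, 10 of 15 constitutive genes (66.7%), 9 of 29 dnj genes (31.0%), 1 of 7 other small heat shock genes (14.3%) and 6467 of 19926 other protein-coding genes (32.5%). The 8 stress-induced promoters are not 8 separate sequences. Those of the hsp-16.1 and hsp-16.48 pairs lie in identical arms, and those of hsp-16.2 and hsp-16.41 share the interval between the starts. TGACGTG, a core read by regulators of the endoplasmic reticulum stress response, was found in 5 of 59 chaperone promoters (8.47%), including hsp-3 and hsp-4, against 2.92% of the other genes, and TATAAA in 24 (40.7%), against 38.0%.

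Genes that work with these chaperones were counted from lists of 46 names, of which 45 were annotated. A pooled candidate lay in the promoter window of 20 (44.4%), against 34.9% of all protein-coding genes, and a reproducible summit in that of 3, against 0.881% of all. Of 12 co-chaperones of Hsp70 and Hsp90, 5 had a candidate and 2 a reproducible summit, to be read against the same shares of all genes. These were bag-1, a nucleotide exchange factor of Hsp70, at rank 91 with a signal of 129 and a summit 172 bp upstream, and ahsa-1, an activator of the Hsp90 ATPase, at rank 153 with a signal of 107 and a summit 219 bp upstream, shared with C01G10.7. The bag-1 region ranked 56 in replicate 1 and 251 in replicate 2, and the ahsa-1 region ranked 291 in replicate 1 and 232 in replicate 2. Another co-chaperone gene, unc-45, which encodes a myosin chaperone that binds Hsp90, had a reproducible peak of rank 140 and signal 111, 120 bp past its end, in a window of F30H5.4.

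The counts in the other lists are likewise to be read against 34.9% of all protein-coding genes with a candidate and 0.881% with a reproducible summit, so that 0 in a short list is no result. Of 9 genes for folding in the endoplasmic reticulum, 5 had a candidate and 1, pdi-6, a protein disulfide isomerase gene, a reproducible summit, at rank 183 with a signal of 99.9 and 125 bp upstream. Its replicates differed, at rank 2737 in replicate 1 and 123 in replicate 2. Prefoldin, which hands new actin and tubulin to the cct ring, had candidates at 4 of 6 genes, the best at rank 6415 in pfd-5. Of 14 annotated regulators of stress responses 5 had a candidate and 0 a reproducible summit, with the best at rank 1880 in ddl-1, a negative regulator of HSF-1. Of 4 mitochondrial proteases 1 had a candidate, ymel-1 at rank 2414.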

How the data were processed

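The authors deposited lists of regions from ChIP-seq of tagged CCCH-3 in 2 biological replicates, on ce11, each made against a control alignment, per the deposited records. The deposited signal of each region is the value of the authors' caller on a scale not stated, and the deposited −log10 q-value was turned back into q. The deposited summit was the region start plus the summit offset, and it was the midpoint of nearly every region. The aligner, caller, IDR threshold, control and read depth are not named in those records or in the labels. Regions were a median of 400 bp wide in the pooled list.

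Summits were assigned to promoter windows with Ensembl release 115, Python 3.11.15, pandas 2.3.3 and numpy 2.4.6, and ranks follow signal. Replicate regions were matched to a pooled region by overlap of at least 1 bp. The assignment was tested on simulated data. Genes were named by rule, namely members with a reproducible peak, the 6 next best by pooled rank, all genes of both classes, genes sharing a summit with a member, and list genes with a reproducible peak. The other members, described for completeness, were named after their values were seen. The members and the lists were chosen with earlier results of these data known. Product names not in Ensembl are from RefSeq. No statistical test was made, and the alternatives tried are in the closing section.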

Additional observations from a re-analysis of the deposited data

How the results depend on the processing

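Of 64 alternative values, 45 stayed within 1.5 times the reported count (for the median rank, within the SD of 4250 between replicate lists) and 19 did not. This tally is not a measure of stability. The SD came from the medians without replicate 1 (9455) and without replicate 2 (3441), which were then themselves compared with it. The unchanged values also include the stress-induced count of 0, which had little room to change. The 4 chaperone genes with a reproducible promoter peak became 0 with a narrow window reaching 250 bp in each direction, 1 with the nearest start only (hsp-1), 1 with the stronger 0.5 of the reproducible peaks and 7 with the whole gene to 200 bp past its end, and the 3 constitutive genes became 0, 1, 1 and 6 under the same settings. Taking the 218 highest regions of a single replicate gave 2 to 4 genes, with hsp-1 and hsp-60 alone without replicate 1 and all 4 without replicate 2. It gave 2 to 3 constitutive genes. Starts of any transcript gave 5 genes, hsp-90 being added. The stress-induced count stayed at 0 in all its alternatives, which is no result for 8 genes when 0.881% of all protein-coding genes had a reproducible summit.

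The 26 genes with a candidate became 16 with the 250 bp window, 16 with the nearest start and 11 with the 5000 highest regions, where the median rank was 556. Without a replicate the count ran from 22 to 33. The 18 genes with regions in both replicates became 10, 10 and 8 under the same 3 settings and 28 with a window of 2000 bp upstream to 500 bp downstream. The 3 genes with a peak at the gene end became 6 with 2 times as many pooled regions and 1 (hsp-1) with summits in no other promoter window. Without replicate 1 the gene-end count was 4 (hsp-1, hsp-110, hsp-6 and hsp-90). Without replicate 2 it was 3 (hsp-1, hsp-6 and hsp-60), so only hsp-1 and hsp-6 were in both. The whole-gene and gene-end windows, with their alternatives, were chosen after seeing the data. The causes were not tested. No paired analysis was possible because there is 1 group. The depth behind the lists is unknown, so a missing region cannot be read as absence of CCCH-3.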
